A study of Homo sapiens with 4 samples.

Results

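METS, a line grown from a lung metastasis of a xenograft, was compared with SA and SPH, the 2 lines of the same origin that the labels call mesenchymal. The genes described here were chosen by their measured values: a gene was taken where METS stood at least 2-fold above both SA and SPH, or at least 2-fold below both, on the scale of log2(RPKM + 1). RPKM is the read density of a gene, scaled to the length of its model and to library size, and the value of 1 added before taking the logarithm damps differences among weakly expressed genes. The table lists 57746 genes, of which 11600 reached 1 RPKM in METS, SA or SPH, and 167 of these met the rule. METS was higher for 53 of them (0.457% of the genes tested) and lower for 114 (0.983%). The differences of METS from SA and SPH selected these genes and are therefore given as a description. The parental line DLD1 played no part in the choice, and its level was read beside each gene to see whether METS stood at the parental level or at one of its own.

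DLD1 is a human colorectal cancer cell line, labelled epithelial. Both SA, from colonies in soft agar, and SPH, from colonospheres, descend from it, as does METS, labelled epithelial. No engineered allele or drug treatment is given for any of the lines, and all 4 were kept in McCoy's medium with fetal bovine serum and antibiotics. Whether a derived line is 1 clone or a pool is not stated in the labels. Total RNA of each line was sequenced as 1 library, so no difference between lines has a replicate check and no test was possible.

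In the epithelial-mesenchymal transition, carcinoma cells loosen their junctions, switch filament and matrix genes and gain motility. The reverse transition is thought to accompany outgrowth at a distant site. Vimentin, matrix proteins and their crosslinking enzymes are usual markers of the mesenchymal side, and keratins, E-cadherin and desmosomal proteins of the epithelial side.

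The 4 libraries were alike in size, with 10920 to 11238 genes at 1 RPKM or more and a mitochondrial share of 25.5% to 26.6% of the summed values. Judged by the steps between low values, 1 RPKM on a 1 kb transcript corresponded to between 48.5 reads (SA) and 54 reads (DLD1), with 50.3 in METS. Over the 11600 tested genes the median log2 difference was -0.05 for METS minus SA and -0.06 for METS minus SPH, so the levels as a whole were barely shifted. The SD of these differences across genes was 0.34 and 0.38, against 0.21 for SPH minus SA.

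The defining genes of colorectal epithelium were expressed in METS and in the other lines. All 7 markers of colorectal epithelium reached 1 RPKM in the 4 lines, and their summed level ran from 1418 RPKM in SA to 2359 in METS. Most of that sum came from the keratins KRT8 and KRT18. For CDX2, a transcription factor of the gut lining, the levels were 31.88, 31.37, 35.99 and 27.58 RPKM across DLD1, SA, SPH and METS, and the intestinal cadherin CDH17 stood at 22.51, 26.15, 34.98 and 14.18, both lowest in METS. E-cadherin (CDH1) stood at 115, 94.5, 97.3 and 103 RPKM across DLD1, SA, SPH and METS, and EPCAM at 212, 222, 231 and 263, so neither adhesion gene set METS apart. Of 5 mesenchymal markers only VIM reached 1 RPKM, in SA and SPH. The other mesenchymal markers were low everywhere: ZEB1 did not exceed 0.26 RPKM, CDH2 0.21 and FN1 0.69, and ZEB2 was listed at 0 in all 4 lines. Markers of other cells were at or near 0 in METS as in the rest. Of 15 leukocyte genes CD14 alone reached 1 RPKM, at most 1.36, with PTPRC, CD3D, CD3E, MS4A1 and TYROBP among those listed at 0 throughout. No fibroblast marker of 11 reached 1 RPKM (summed level 0.22 to 0.52). Of 8 endothelial markers CLDN5 alone did (at most 1.21 RPKM), with the sum at 1.49 to 2.25. Of 11 lung epithelial markers 2 did, and their sum lay between 1.66 and 2.45 RPKM. In RNA from a whole culture, a gene lost from some of the cells and a lower level in every cell cannot be told apart.

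Read against DLD1, most genes lower in METS fell into either of 2 classes. A gene was called returned where METS was within 2-fold of DLD1 and both SA and SPH stood at least 2-fold from DLD1. It was called new in METS where METS stood at least 2-fold from DLD1 as well, in the same direction, while SA and SPH were both within 2-fold of DLD1. Of the 114 lower genes 33 were returned and 44 were new, and of the 53 higher genes 3 were returned and 23 were new. DLD1 lay between the mesenchymal lines and METS, at least 2-fold from each, for H19, S100P and C6orf15. For 2 genes SA and SPH already differed from DLD1 in the same direction and METS stood further out, S100A4 upward and KRT20 downward. No gene stood part of the way back and still 2-fold from DLD1. The remaining 59 genes, 23 higher and 36 lower, met none of these definitions and were not placed. The minimum of 1 RPKM bears on the directions, since 62 of the 114 lower genes were under 1 RPKM in METS and 15 of the 53 higher genes were under it in both SA and SPH. Such genes could be tested only because the other side reached the minimum, which fixes their direction. The added 1 fixes it as well, since a gene under 1 RPKM cannot stand 2-fold above another on that scale. Without the minimum the same 167 genes were taken. METS was the highest of the 4 lines for 50 of the 53 higher genes and the lowest for 99 of the 114 lower genes. The rule itself puts METS beyond SA and SPH, so only its order against DLD1 was open. For genes that were new, continued or with DLD1 between, the definition fixes that order too. For 37 of the lower genes DLD1 and METS were both under 1 RPKM, where their order rests on low values.

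As background to these classes, METS stood at least 2-fold above DLD1 for 59 of the 11600 tested genes (0.509%) and below it for 94 (0.81%). Among the 167 genes, 29 of the 53 higher and 50 of the 114 lower were also 2-fold from DLD1 in the same direction. SA and SPH both stood at least 2-fold above DLD1 for 43 tested genes (0.371%) and below it for 12 (0.103%). These comparisons share libraries with the rule (METS in the first pair, SA and SPH in the second), so an error in 1 library enters both sides, and nothing is read from the counts beyond the classes themselves. The level of DLD1 was nearer to METS than to the mean of SA and SPH for 60 genes, 48 of them lower in METS, and nearer to SA and SPH for 107. Much of this repeats the classes, since by definition DLD1 is nearer METS in a returned gene and nearer SA and SPH in a new one. Among the 59 genes not placed, DLD1 was nearer METS for 22.

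**Figure D1:**
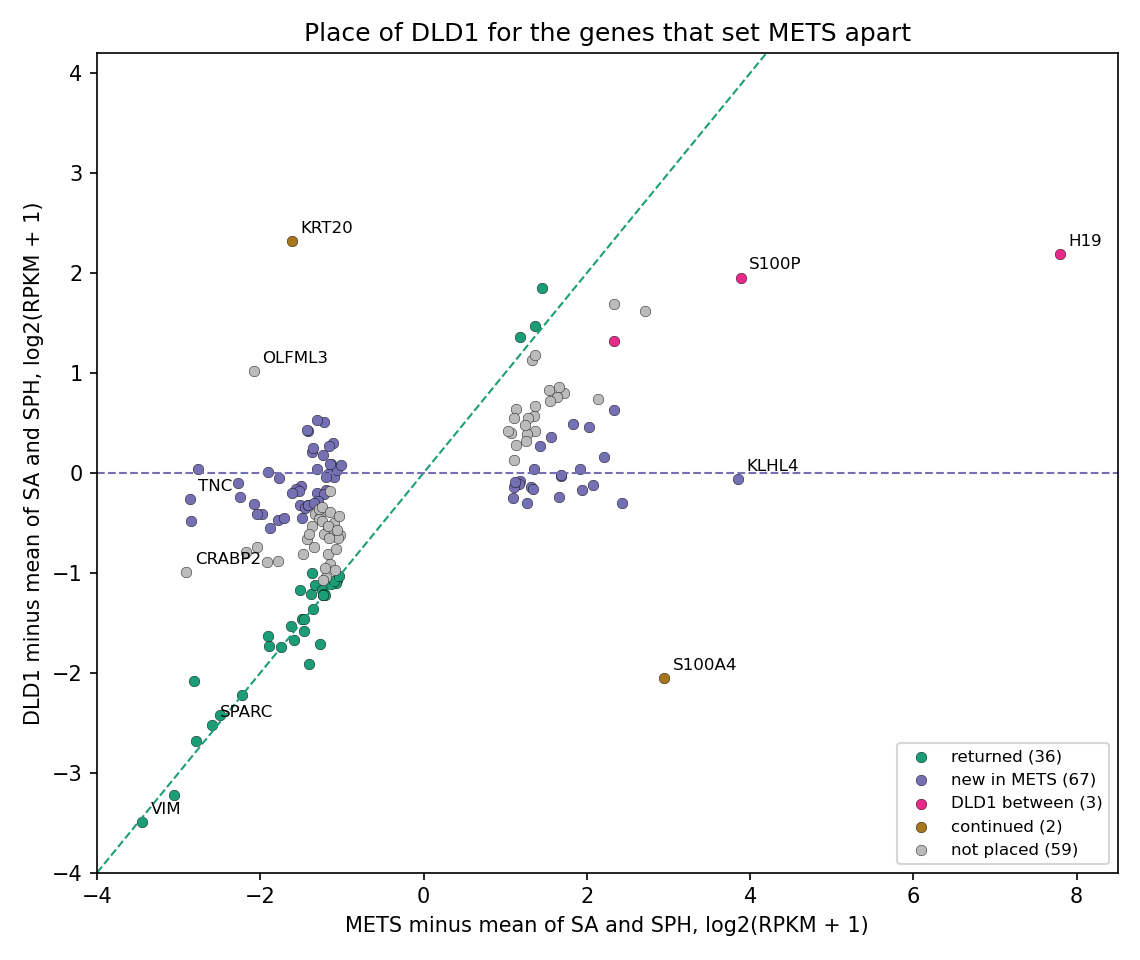
Place of the parental line for the 167 genes, 1 point per gene. The horizontal axis is METS minus the mean of SA and SPH and the vertical axis DLD1 minus the same mean, both in log2(RPKM + 1). Points on the green diagonal have DLD1 and METS at the same level, as for VIM and SPARC, and points on the purple horizontal line have DLD1 level with SA and SPH, as for KLHL4. Colours give the classes, with 36 genes returned, 67 new in METS, 3 with DLD1 between, 2 continued and 59 not placed.

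The returned genes that were lower in METS were mostly expressed above 1 RPKM in SA and SPH alone. In 30 of the 33, DLD1 and METS were both under 1 RPKM. These genes passed the minimum through SA and SPH only, and their direction followed from that. With 1 added, any values under 1 RPKM lie within 2-fold of each other, so METS could not stand apart from DLD1 in these 30. For the place of METS, their class therefore shows only that both lines were under 1 RPKM, as for CST1 at 0.70 RPKM in DLD1 and 0.02 in METS. VIM, the intermediate filament vimentin, stood at 0.18 RPKM in DLD1, against 12.48 for SA, 12.19 for SPH and 0.22 for METS. The mesenchymal lines were alike and far above the other lines, and METS minus SA and METS minus SPH were -3.47 and -3.43 on the log2 scale. Both differences exceeded 8-fold on that scale.

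Matrix proteins and the enzymes that crosslink them made up a second part of the returned genes. SPARC, a collagen-binding matrix protein, stood at 0.19 RPKM in DLD1, against 5.96 for SA, 5.72 for SPH and 0.13 for METS (differences of -2.62 and -2.57). IGFBP7, a secreted protein that binds growth factors and matrix, stood at 0.12, 6.17, 6.23 and 0.04 RPKM (-2.79 and -2.80). The transglutaminase TGM2 stood at 0.29, 3.39, 3.16 and 0.15 RPKM and the lysyl oxidase relative LOXL4 at 0.03, 2.30, 2.25 and 0.09. In these genes SA and SPH were alike, while DLD1 and METS were both at or under 0.29 RPKM. MSN, the linker of actin to the membrane called moesin, stood at 0.11, 2.23, 2.18 and 0.04 RPKM, and the beta-tubulin TUBB2B at 0.52, 3.34, 4.15 and 0.26. KRT5, a keratin of basal cells in layered epithelia, belonged to the same pattern at 0.13, 4.96, 5.15 and 0.07 RPKM (-2.48 and -2.52).

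Secreted regulators and membrane proteins were also returned. DKK4, an antagonist of WNT signalling, stood at 0.04, 4.26, 3.47 and 0.04 RPKM across DLD1, SA, SPH and METS, and APCDD1, another WNT antagonist at the cell surface, at 0.27, 3.06, 2.59 and 0.38. CST1, a cystatin that inhibits cysteine proteases, stood at 0.70, 5.52, 6.93 and 0.02 RPKM. Its neighbour copies CST2 and CST4 were at most 0.48 RPKM, and reads could be shared among them. STRA6, the receptor through which cells take up retinol, stood at 0.01, 1.39, 1.29 and 0 RPKM. STC2, a secreted glycoprotein called stanniocalcin, was listed at 0 in both epithelial lines (1.59 RPKM for SA and 1.55 for SPH). CBS, which makes cystathionine from homocysteine, and the membrane scramblase ANO6 had the same form, at 1.12 and 1.10 RPKM and at 1.07 and 1.03 RPKM in SA and SPH and at most 0.01 elsewhere. METS was listed at 0 for 11 of the 114 lower genes. The returned genes that stayed above 1 RPKM in DLD1 and METS included, named after their values were seen, LGALS1 (4.66, 15.78, 19.42 and 6.65 RPKM) and RGCC (1.67, 4.42, 5.12 and 1.62).

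Only 3 of the 53 higher genes had returned to the parental level. INHBB, a subunit of activin B, stood at 11.01 RPKM in DLD1, against 3.78 for SA, 3.62 for SPH and 9.62 for METS. EFHD1, a calcium-binding protein of mitochondria, stood at 7.89, 1.72, 1.25 and 5.78 RPKM. ALPP, the placental alkaline phosphatase, stood at 8.89, 3.25, 2.01 and 8.21 RPKM. In each of them DLD1 was slightly above METS, and SA and SPH were the 2 lowest lines. ALPP has a close copy, ALPPL2, listed at 0.07 to 0.18 RPKM, so reads of the pair may be shared.

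**Figure D2:**
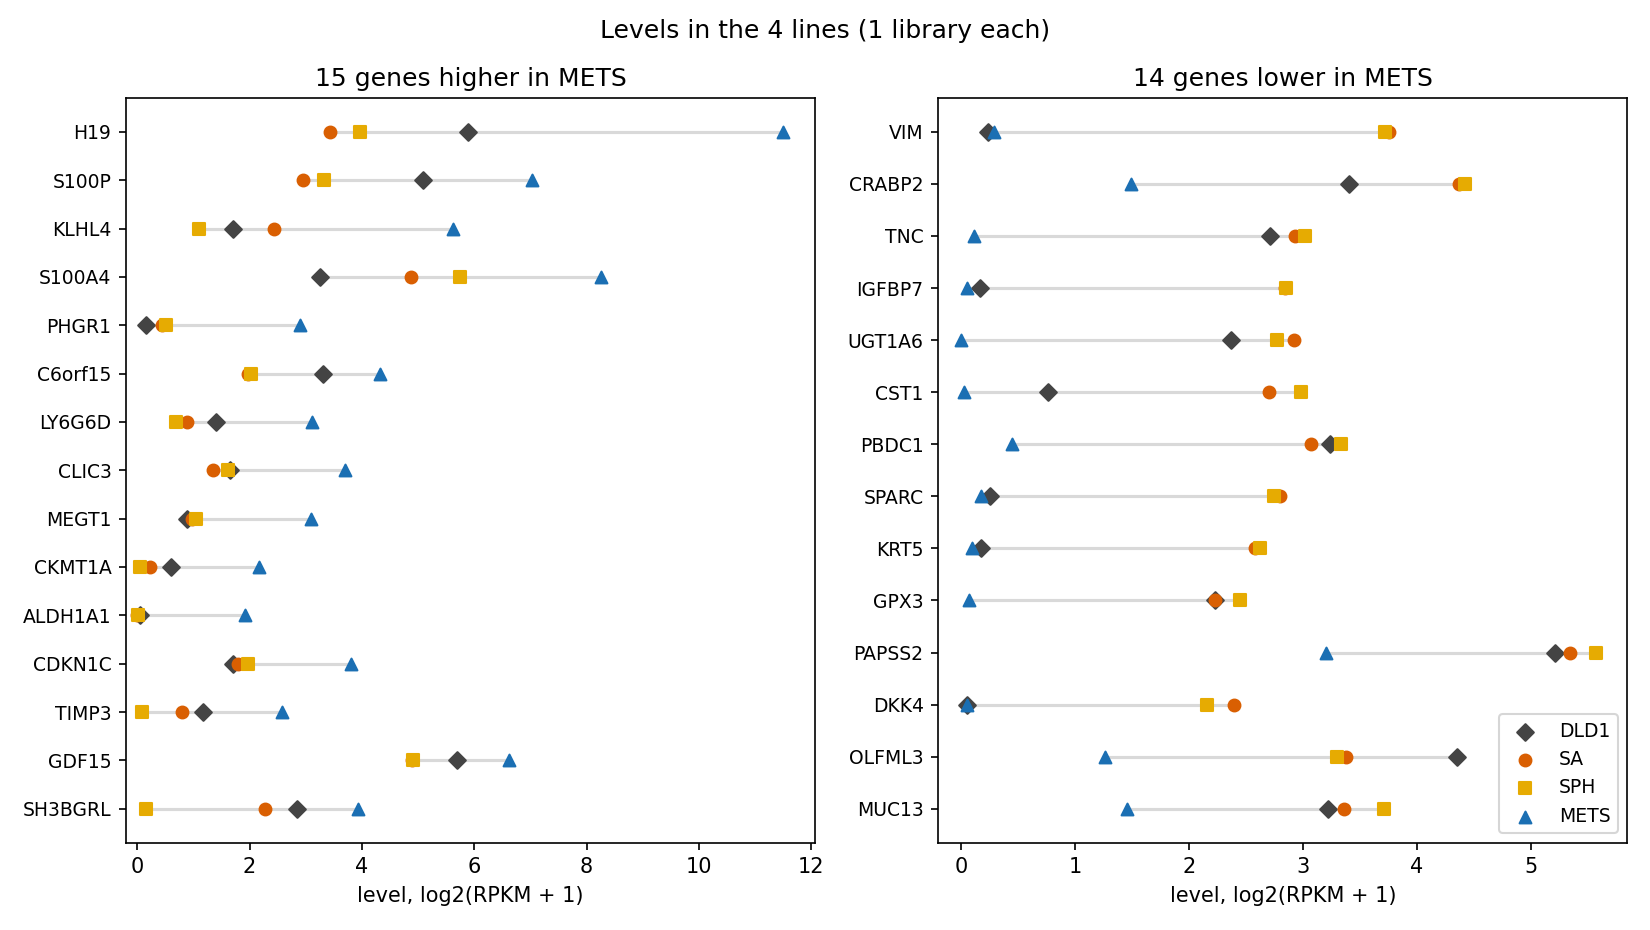
Levels of the 15 genes highest and 14 of the 15 lowest in METS by the smaller of their differences from SA and SPH, in log2(RPKM + 1), with 1 library per line. Each marker is 1 line and the grey bar spans the 4 lines. Among the lower genes DLD1 lies beside METS for VIM, IGFBP7, SPARC, KRT5 and DKK4, and beside SA and SPH for TNC, PBDC1, GPX3 and PAPSS2.

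The genes newly low in METS were expressed in the other 3 lines. All 44 reached 1 RPKM in DLD1, SA and SPH alike, which the definition requires once 1 is added to each value. METS was under 1 RPKM for 17 of them. Their median level was 6.91 RPKM in DLD1, against 7.40 for SA, 7.45 for SPH and 1.70 for METS. TNC, the matrix glycoprotein tenascin C, stood at 5.55, 6.61, 7.12 and 0.08 RPKM across DLD1, SA, SPH and METS, with log2 differences of -2.82, -2.91 and -2.60 from SA, SPH and DLD1. TNC is a matrix gene like SPARC and IGFBP7, but SPARC and IGFBP7 were low in DLD1 and TNC was not.

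Several of the newly low genes act at the cell surface and in contact with the matrix. The hyaluronan receptor CD44 stood at 4.37, 5.84, 5.60 and 1.36 RPKM across DLD1, SA, SPH and METS, and the integrin subunit ITGB6 at 1.92, 1.90, 2.66 and 0.10. NT5E, the surface enzyme that makes adenosine, stood at 29.43, 31.50, 33.40 and 10.84 RPKM. CTGF, a matricellular protein and common target of YAP and TAZ, stood at 9.26, 9.65, 7.77 and 3.38 RPKM and only just met the rule (-1.28 from SA and -1.002 from SPH). MUC13, a transmembrane mucin of the gut, stood at 8.34, 9.27, 12.11 and 1.74 RPKM. In these genes the other 3 lines were closer to each other than to METS. The epithelial side had losses too, as the desmosomal plaque protein PKP2 stood at 27.14, 25.32, 25.66 and 11.10 RPKM and the epithelial transcription factor EHF at 21.54, 20.68, 22.82 and 9.05.

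Some of the newly low genes encode enzymes and transporters. PAPSS2, which makes the activated sulfate used by sulfotransferases, stood at 36.10, 39.56, 46.47 and 8.22 RPKM across DLD1, SA, SPH and METS. GPX3, the secreted glutathione peroxidase, stood at 3.70, 3.68, 4.47 and 0.05 RPKM. UGT1A6, which attaches glucuronic acid to small molecules, stood at 4.17, 6.58 and 5.85 RPKM and was listed at 0 in METS. The other entries of the UGT1A locus share exons with it and stood at 0.02 to 0.39 RPKM in DLD1, SA and SPH and at no more than 0.02 in METS, so the locus as a whole was low there. The glucose transporter SLC2A3 stood at 7.72, 8.69, 6.73 and 1.31 RPKM, the chloride channel CFTR at 3.27, 5.53, 3.92 and 0.44, and the drug efflux pump ABCB1 at 11.17, 14.21, 12.13 and 5.06. IL33, a cytokine of epithelial cells, stood at 7.16, 7.68, 12.62 and 1.65 RPKM. CADPS, a protein of vesicle release, stood at 2.20, 3.97, 3.42 and 0.27 RPKM. PBDC1 stood at 8.45, 7.41, 9.11 and 0.36 RPKM. Its difference from DLD1 (-2.80) was the largest among the newly low genes.

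The 23 genes newly high in METS had medians of 1.66, 1.54, 1.5 and 7.51 RPKM across DLD1, SA, SPH and METS. SA and SPH were both under 1 RPKM for 9 of them, so that these passed the minimum without SA or SPH and could only be higher in METS, while 13 reached 1 RPKM in DLD1, SA and SPH alike. KLHL4, of the kelch-like family, stood at 2.27, 4.44, 1.14 and 48.40 RPKM, with log2 differences of 3.18 from SA, 4.53 from SPH and 3.92 from DLD1. PHGR1, a gene of the intestinal epithelium, stood at 0.12, 0.35, 0.42 and 6.48 RPKM. CDKN1C, an imprinted inhibitor of cyclin-dependent kinases, stood at 2.27, 2.46, 2.91 and 13.07 RPKM. ALDH1A1, which makes retinoic acid and is used as a stem cell marker, was nearly silent in 3 lines (0.03, 0 and 0.01 RPKM) and stood at 2.78 in METS. For each of these genes METS stood well above the highest of the other 3 lines.

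Other newly high genes encode surface, secreted and metabolic proteins. DSC2, a cadherin of desmosomes, stood at 1.14, 1.27, 1.82 and 6.97 RPKM across DLD1, SA, SPH and METS, opposite in direction to PKP2 of the same junction. CLIC3, of the chloride intracellular channel family, stood at 2.13, 1.54, 2.08 and 11.93 RPKM, and the secreted mucin MUC5AC at 11.90, 10.51, 6.34 and 31.61. LY6G6D, an anchored surface protein, stood at 1.66, 0.84, 0.62 and 7.66 RPKM and MEGT1, whose entry overlaps it, at 0.85, 0.97, 1.06 and 7.51, so their reads may be shared. Reads may also be shared between the near-identical mitochondrial creatine kinase genes CKMT1A (0.52, 0.17, 0.04 and 3.48 RPKM) and CKMT1B (0.76, 0.54, 0.38 and 2.92).

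H19, S100P and C6orf15 were lower in SA and SPH than in DLD1 and higher in METS than in any other line. H19, an imprinted long noncoding RNA, stood at 58.04 RPKM in DLD1, against 9.74 for SA, 14.67 for SPH and 2892.87 for METS. The log2 differences of METS were 8.07 from SA, 7.53 from SPH and 5.62 from DLD1, the largest of the 167 genes in each of the 3 comparisons. IGF2, its imprinted neighbour, was not among the 167 and stood at 1.58, 0.53, 0.49 and 0.61 RPKM. S100P, a calcium-binding protein, stood at 33.12, 6.78, 9 and 129.41 RPKM (4.07 and 3.70 from SA and SPH). C6orf15 stood at 8.95, 2.94, 3.06 and 19.07 RPKM.

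S100A4 and KRT20 stood further from DLD1 in METS than in the mesenchymal lines. S100A4, a regulator of motility that binds calcium and is often listed as a mesenchymal marker, stood at 8.56 RPKM in DLD1, against 28.49 for SA, 52.40 for SPH and 304.62 for METS. It was thus highest in a line labelled epithelial, by 3.37 over SA and 2.52 over SPH. KRT20, the keratin of differentiated intestinal cells, stood at 21.92, 4.06, 3.18 and 0.50 RPKM, highest in DLD1 and lowest in METS. S100A14, the third S100 gene among the 167, stood at 209.92, 126.71, 143.61 and 297.06 RPKM.

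The start regions of 6 of these genes are printed to show how their sequence differs, 3 higher in METS (S100P, S100A4 and DSC2) and 3 lower (KRT20, LOXL4 and STC2). They were picked after the values were seen, because each holds the string CAGGTG or its reverse CACCTG, the E-box form recognised by the ZEB and SNAIL families of repressors, which is in capitals. Sequences are from RefSeq on GRCh38.p14, 250 bases before to 50 after the annotated start, 5′ to 3′ on the strand of the gene: S100P at chr4:6693628-6693927 (plus), S100A4 at chr1:153545757-153546056 (minus), DSC2 at chr18:31102372-31102671 (minus), KRT20 at chr17:40885193-40885492 (minus), LOXL4 at chr10:98268145-98268444 (minus) and STC2 at chr5:173328365-173328664 (minus).
S100P: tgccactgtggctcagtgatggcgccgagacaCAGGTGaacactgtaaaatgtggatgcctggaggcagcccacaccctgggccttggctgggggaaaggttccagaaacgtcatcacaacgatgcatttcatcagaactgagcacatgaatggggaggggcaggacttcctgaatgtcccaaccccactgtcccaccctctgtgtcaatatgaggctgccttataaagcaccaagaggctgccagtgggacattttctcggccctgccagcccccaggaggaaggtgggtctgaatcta
S100A4: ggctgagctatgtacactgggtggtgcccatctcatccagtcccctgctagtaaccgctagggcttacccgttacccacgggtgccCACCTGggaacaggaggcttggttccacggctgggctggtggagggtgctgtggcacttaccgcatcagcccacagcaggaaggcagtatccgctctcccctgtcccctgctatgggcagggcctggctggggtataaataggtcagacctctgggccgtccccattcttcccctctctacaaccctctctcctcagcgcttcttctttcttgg
DSC2: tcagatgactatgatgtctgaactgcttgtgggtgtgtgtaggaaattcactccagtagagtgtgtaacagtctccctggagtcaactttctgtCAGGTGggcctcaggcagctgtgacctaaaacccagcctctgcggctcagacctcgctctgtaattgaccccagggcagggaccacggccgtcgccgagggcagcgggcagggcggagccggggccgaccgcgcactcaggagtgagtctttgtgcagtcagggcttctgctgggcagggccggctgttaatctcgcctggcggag
KRT20: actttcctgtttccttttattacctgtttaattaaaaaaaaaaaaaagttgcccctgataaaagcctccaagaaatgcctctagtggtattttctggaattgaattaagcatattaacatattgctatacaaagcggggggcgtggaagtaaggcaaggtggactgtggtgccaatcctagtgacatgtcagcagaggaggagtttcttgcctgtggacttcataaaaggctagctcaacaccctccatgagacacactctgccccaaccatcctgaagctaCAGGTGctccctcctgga
LOXL4: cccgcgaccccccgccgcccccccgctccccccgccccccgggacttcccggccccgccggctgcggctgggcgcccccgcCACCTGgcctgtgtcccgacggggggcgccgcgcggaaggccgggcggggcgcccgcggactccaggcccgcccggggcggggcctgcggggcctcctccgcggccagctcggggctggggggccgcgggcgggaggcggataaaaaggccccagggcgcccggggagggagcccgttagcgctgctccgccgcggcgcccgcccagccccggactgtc
STC2: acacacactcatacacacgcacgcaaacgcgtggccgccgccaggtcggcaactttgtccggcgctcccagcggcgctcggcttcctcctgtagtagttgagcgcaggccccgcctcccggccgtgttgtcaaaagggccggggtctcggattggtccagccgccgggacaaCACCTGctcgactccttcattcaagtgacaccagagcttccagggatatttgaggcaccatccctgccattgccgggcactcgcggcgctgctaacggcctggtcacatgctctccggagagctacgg

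These windows differ in their CpG content. S100P held 5 CpG dinucleotides, S100A4 8, DSC2 15 and KRT20 2, against 45 in LOXL4 and 28 in STC2. The ratio of observed to expected CpG was 0.21 in S100P, 0.29 in S100A4, 0.55 in DSC2 and 0.14 in KRT20, against 0.83 in LOXL4 and 0.92 in STC2. Start regions could be matched for 114 of the 167 genes, 36 higher and 78 lower in METS. A ratio above 0.6 was found in 14 of the 36 higher genes (38.9%), in 50 of the 78 lower genes (64.1%) and in 85.7% of the 8859 tested genes with a window. Among the 14 matched genes newly high in METS it was found in 3 (21.4%). Of 27305 windows in the table of RefSeq starts, 48.9% passed the same ratio, so the tested genes as a whole were richer in CpG than the table. The annotated start may not be the one used in these cells.

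The E-box string was present on either strand in 16 of the 36 higher windows (44.4%), 19 of the 78 lower windows (24.4%), 18.5% of the windows of tested genes and 20.6% of all windows. The string TGANTCA, the site form of AP-1, was present in 0 of the 36 and 3 of the 78 windows (3.85%), against 4.32% of tested genes and 7.76% of all windows. CTTTGAT on either strand, the site form of TCF factors, was present in 0 of 36 and 1 of 78 (1.28%), against 1.31% and 2.64%, and it can share letters with the AP-1 form. The string TATAAA on the strand of the gene was present in 5 of 36 (13.9%) and 7 of 78 (8.97%), against 3.23% and 7.71%, and S100P and S100A4 both hold it. A match is a string of letters and does not show that a factor binds.

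The 59 genes that could not be placed included some with large differences. CRABP2, the carrier that brings retinoic acid to its nuclear receptors, stood at 9.59 RPKM in DLD1, against 19.68 for SA, 20.47 for SPH and 1.81 for METS (-2.88 and -2.93). OLFML3, a secreted olfactomedin-like protein, stood at 19.42, 9.42, 8.82 and 1.40 RPKM, lower in the mesenchymal lines than in DLD1 and lower again in METS. AXL, a receptor tyrosine kinase linked to the mesenchymal state, stood at 0.28, 1.90, 1.5 and 0.15 RPKM, and NOTUM, an enzyme that inactivates WNT proteins, at 0.65, 2.22, 2.57 and 0.48. DLD1 lay close to METS for AXL and NOTUM, but at least one mesenchymal line was less than 2-fold above DLD1. The receptor tyrosine kinase MET stood at 16.61, 23.33, 22.68 and 8.97 RPKM and EPHB6, a kinase-dead ephrin receptor, at 11.36, 12.84, 13.23 and 5.33.

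Among the higher genes not placed, SH3BGRL, MGST1 and TIMP3 were much lower in SPH than in SA. SH3BGRL stood at 6.16, 3.82, 0.12 and 14.26 RPKM across DLD1, SA, SPH and METS. MGST1, a membrane-bound glutathione transferase, stood at 4.88, 2.22, 0.03 and 8.14 RPKM, and TIMP3, an inhibitor of metalloproteinases, at 1.26, 0.73, 0.06 and 4.97. For these genes the smaller log2 difference of METS, from SA, was 1.66, 1.51 and 1.79. GDF15, a stress-induced cytokine, stood at 50.62, 28.61, 28.90 and 96.95 RPKM, and the growth factor receptor FGFR3 at 1.72, 0.74, 0.34 and 3.41. The villin-like gene VILL (5.44, 2.29, 1.65 and 6.4 RPKM) and CHAC1, which degrades glutathione (9.96, 4.58, 3.20 and 11.44), came close to the returned class, since METS was within 0.20 of DLD1 on the log2 scale in both.

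Gene lists for pathways and cell states were read by counts and by the median of METS minus the mean of SA and SPH, against -0.05 over all tested genes. By the rule, 0.457% of all tested genes were higher in METS and 0.983% lower. Of 25 listed matrix and basement membrane genes 7 were lower in METS by the rule and none was higher, with a median of -0.46. The 7 were TNC, SPARC, IGFBP7, OLFML3, TGM2, LOXL4 and CTGF, and 4 of them were returned and 2 new. TNC and the 4 returned genes, SPARC, IGFBP7, TGM2 and LOXL4, were under 1 RPKM in METS. The direction of 5 of the 7 was thus fixed by the minimum and by the added 1. LAMA2, a laminin chain that was not on the list, was higher in METS by the rule. It stood at 0.55, 0.68, 0.73 and 2.66 RPKM across DLD1, SA, SPH and METS, so its direction was fixed in the same way. Of 18 mesenchymal markers 8 were lower and 1, S100A4, was higher (median -0.66), but all of the 8 except CD44 lay below 1 RPKM in both epithelial lines and were let in through SA and SPH alone, which fixes their direction. Of 24 WNT targets and antagonists 4 were lower (DKK4, NOTUM, APCDD1 and CD44) and none higher, with a median of -0.04, so the list as a whole stood at the level of all genes. DKK4, NOTUM and APCDD1 were under 1 RPKM in METS, which likewise fixes the direction of 3 of the 4. Of 10 S100 genes 3 were higher and none lower (median 0.55), and of 10 imprinted genes 2 were higher, H19 and CDKN1C (median 0.39).

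Junction genes leaned slightly to the higher side in METS, and intestinal genes went both ways. Of 32 genes of epithelial adhesion and junctions DSC2 was higher and PKP2 lower by the rule (median 0.12). Of the 32, 20 stood above both SA and SPH by any amount (62.5%, against 29.4% of all tested genes) and 7 stood below both (21.9%, against 47.9%). Of 7 keratins KRT5 and KRT20 were lower, and the median was 0.82, since KRT8, KRT18, KRT19 and KRT80 were higher in METS by less than the rule asks. KRT8 stood at 817, 565, 587 and 1084 RPKM across DLD1, SA, SPH and METS. Of 17 genes on the list for intestinal identity MUC5AC, PHGR1 and AGR2 were higher and KRT20 and MUC13 lower (median -0.29). Of 14 retinoid genes ALDH1A1 was higher and 3 were lower, among them CRABP2 and STRA6 (median -0.02). Of 29 genes of glutathione metabolism and conjugation MGST1 and CHAC1 were higher and GPX3, UGT1A6 and PAPSS2 lower (median 0.03).

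**Figure D3:**
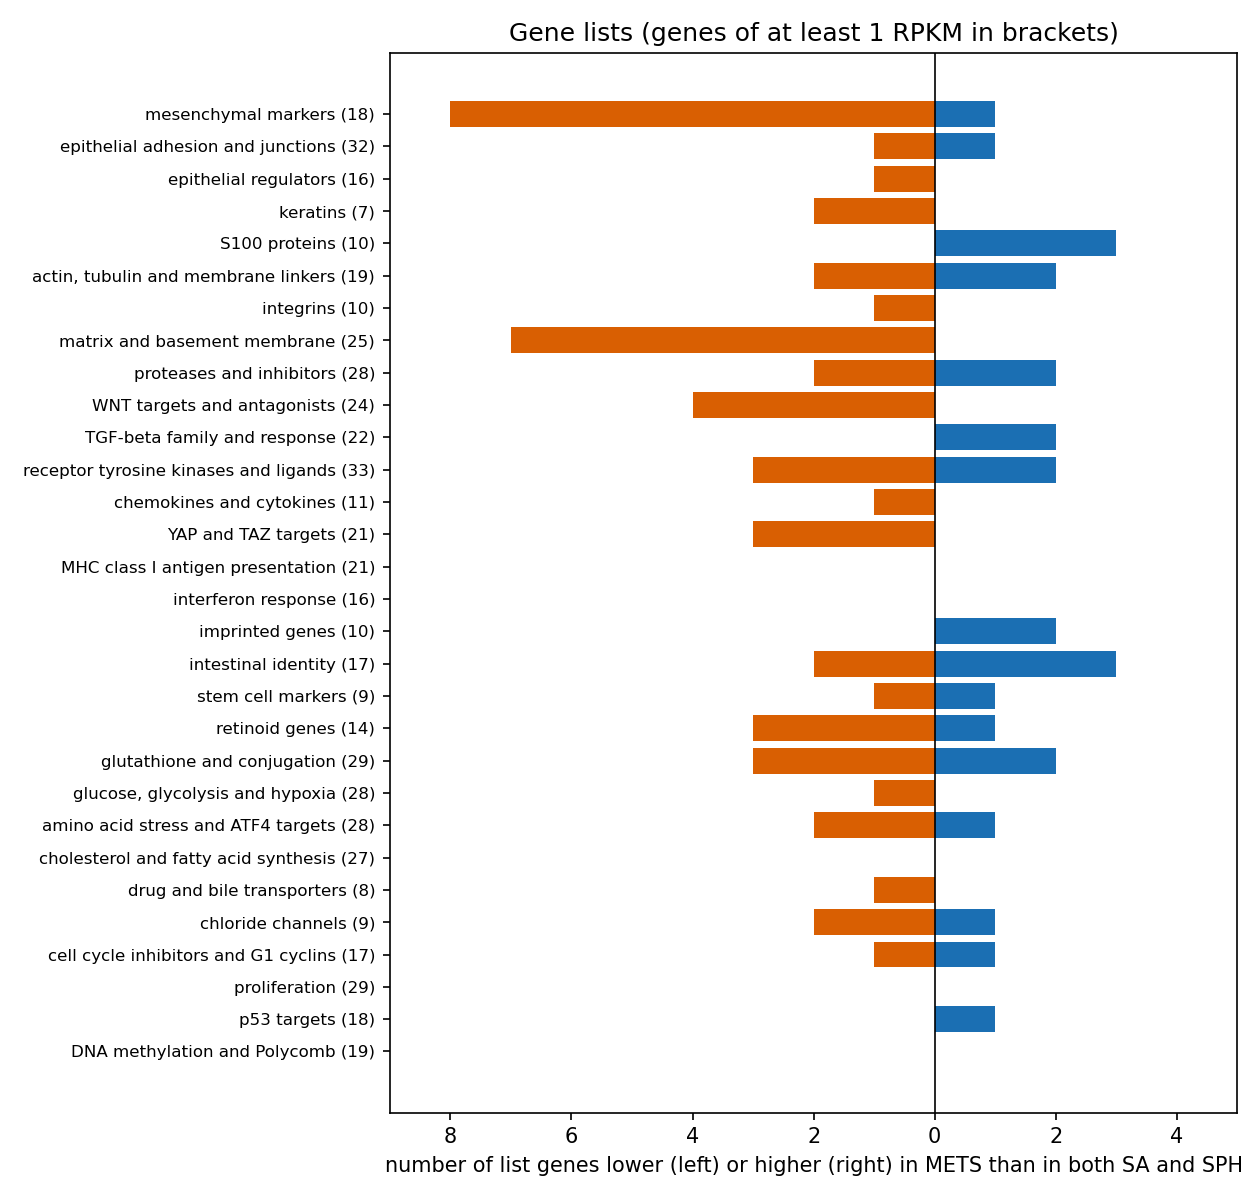
Number of genes of each list that were at least 2-fold lower (left, orange) or higher (right, blue) in METS than in both SA and SPH. The number of list genes of at least 1 RPKM is in brackets, and bars start at 0. Genes of the matrix list, which does not hold LAMA2, lie on the left alone with 7, S100 genes on the right alone with 3, and proliferation genes on neither side.

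The 167 genes lay on many chromosomes in uneven shares, with a few adjacent groups. Chromosome 5 held 10 lower genes among 463 tested (2.16%) and 0 higher, and chromosome 12 held 11 lower among 578 (1.90%) and 2 higher. Chromosome 1 held 5 lower among 1145 (0.437%) and 4 higher. Over all tested genes 0.983% were lower and 0.457% higher. Chromosomes 5 and 12 are given because their shares of lower genes were the highest. Whether the shares differ by more than random placing would give was not tested. With genes placed in RefSeq order, 154 of the 167 had a place, and 23 of them lay within 3 tested genes of another gene of the same direction, in 11 runs. These runs were picked out after the values were seen, and whether they are more than random placing would give was not tested. On chromosome 12, OLR1, TMEM52B and GABARAPL1 were consecutive tested genes and all newly low in METS. OLR1, a scavenger receptor, stood at 67.15, 52.22, 41.07 and 18.10 RPKM across DLD1, SA, SPH and METS, TMEM52B at 30.95, 29.90, 24.73 and 11.01, and GABARAPL1, an autophagy protein, at 30.13, 24.49, 34.91 and 11.27. The remaining runs held 2 genes each. EHF and CD44 on chromosome 11 were separated by APIP (4.02, 4.06, 4.45 and 4.46 RPKM) and PDHX (10.25, 11.23, 11.35 and 12.55), and MET and CFTR on chromosome 7 by CAPZA2 (13.31, 13.87, 13.42 and 15.11) and ST7 (2.01, 2.77, 2.27 and 2.43). None of the genes between them met the rule. S100A4 and S100A14 on chromosome 1 were separated by S100A2 (2.11, 3.01, 2.03 and 1.14 RPKM) and S100A16 (114.82, 94.20, 98.30 and 139.60), and S100A2 was lower in METS than in SA and SPH.

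**Figure D4:**
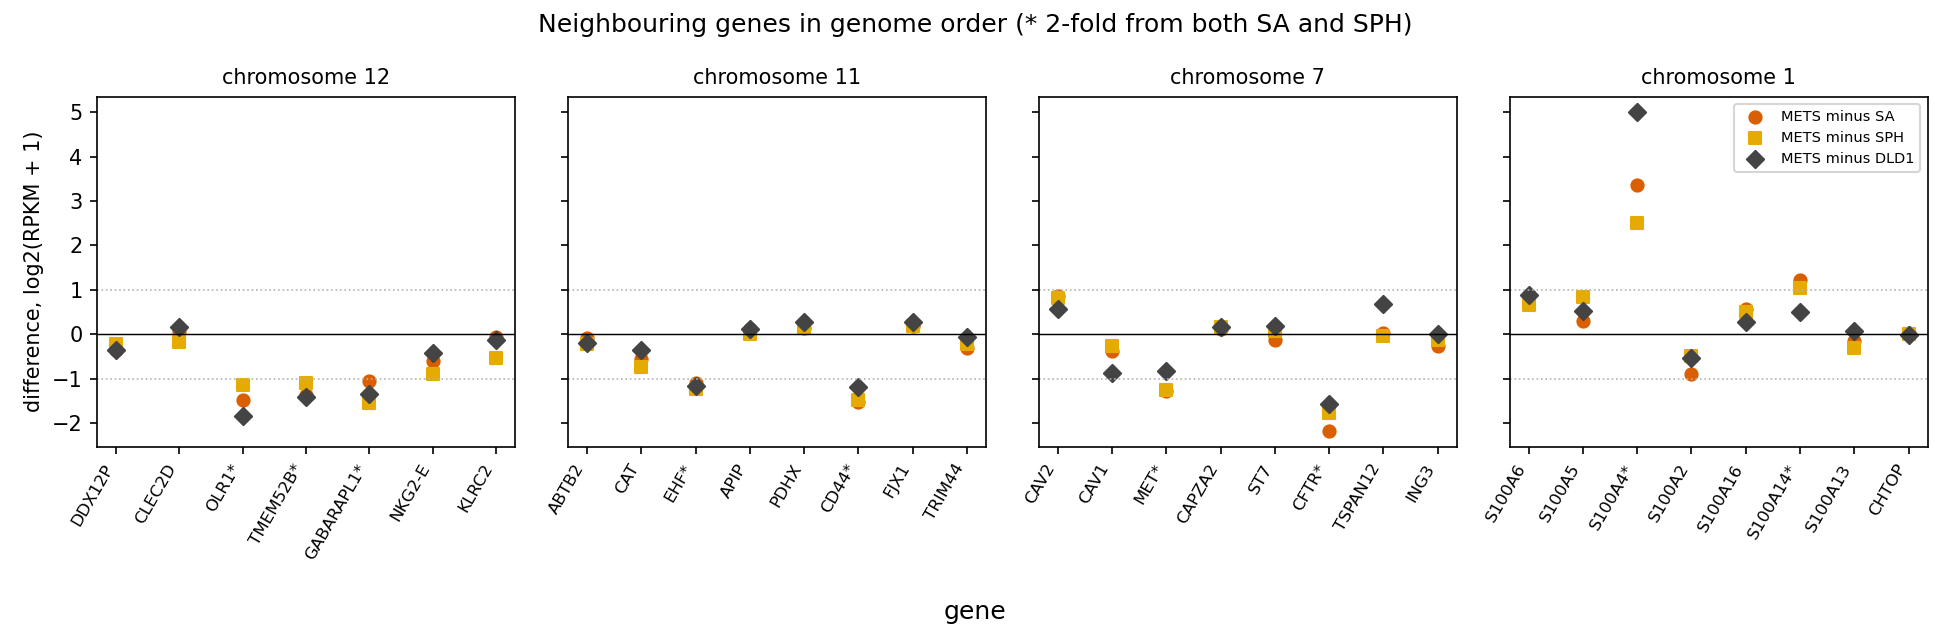
Difference of METS from SA, SPH and DLD1 in log2(RPKM + 1) for tested genes in genome order around 4 runs, with stars on the genes that met the rule and dotted lines at 2-fold. The 3 starred genes on chromosome 12 are adjacent and below the lower line, and the genes between EHF and CD44 and between MET and CFTR lie near 0.

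The 2-fold threshold divides a continuous range of values. Just inside it on the higher side were AGR2 (79.76, 78.17, 67.78 and 157.92 RPKM across DLD1, SA, SPH and METS), AREG (95.50, 72.57, 69.70 and 146.77) and PCMTD2 (7.04, 8, 9.12 and 19.43). Just outside it were PROM2 (2.16, 1.94, 2.68 and 6.29), WNT10A (1.65, 0.76, 0.78 and 2.55) and PRSS1 (3.85, 3.02, 1.09 and 7.02). On the lower side IQGAP2 (1.91, 1.69, 1.16 and 0.08), EEPD1 (1.59, 2.64, 3.53 and 0.82) and SLC12A2 (42.49, 66.20, 61.24 and 30.11) were just inside. ARG2 (6.44, 9.75, 7.73 and 3.44), EPS8 (18.05, 16.11, 17.45 and 7.64) and AMH (12.61, 16.01, 15.64 and 7.36) were just outside. At 4-fold in both pairs 9 higher and 14 lower genes remained.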

How the data were processed

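Total RNA of 4 cell lines was sequenced from libraries made with standard Illumina methods, 1 per line, per the labels' protocols. A single table of gene levels to 2 decimals was deposited, and its values were taken to be RPKM computed by the authors, judging from the values themselves. The genome build named is hg19, per the submitters' processing notes. Aligner, counter, annotation and use of strand were not given in the sources used here, so overlapping and near-identical genes cannot be told apart.

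No deposited value was rescaled before log2(RPKM + 1) was taken. A gene entered where METS, SA or SPH reached 1 RPKM, and was taken at 2-fold or more in the same direction against SA and SPH. A gene at 0 is called listed at 0 and gets no ratio of RPKM values. Its difference in log2(RPKM + 1) was still used by the rule, the ranking and the classes. Depth is known only from the step size of low values in 485 to 530 single-transcript genes per line, with gene lengths from GENCODE 29, and no counting intervals were computed.

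The genes, the 34 gene lists and the definitions were chosen with earlier results of these data known. After their values were seen, TP73 was taken off the imprinted list and S100PBP off the S100 list, because neither belongs there. Named genes are the 15 highest and 15 lowest by the smaller difference, the first 8 in each class and direction, up to 8 per list, the 3 on each side of the threshold, and VIM, CDH1, EPCAM and ZEB1. Clone-type, ribosomal, small, mitochondrial and pseudogene entries were skipped when ranking. Other genes named were chosen after their values were seen. Some genes are not reported here. Names were matched to RefSeq (GRCh38.p14), used for names, neighbours and start regions, with 154 of the 167 genes matched. The code of the selection was run on simulated data, from genes averaging at least 5 RPKM with planted differences and little noise. That run held no genes near the minimum, so it checks the code and not the calls among weakly expressed genes. Alternatives were pseudocounts of 0.1 and 5, a 1.5-fold or 4-fold rule, scaling by median-of-ratios factors, a minimum of 5 RPKM or none, and leaving out SA or SPH. Python 3.11.15 with pandas 2.3.3, numpy 2.4.6 and matplotlib 3.10.9 was used.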

Additional observations from a re-analysis of the deposited data

How the results depend on the processing

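None of the 167 genes changed direction under any alternative, but this was fixed in advance. Another pseudocount, minimum or fold rule, or leaving out SA or SPH, keeps the sign of each difference. The median-of-ratios factors, 0.976 to 1.015, were too small a change to reverse a 2-fold difference. The size of the log2 differences depends on the pseudocount. Of 91 named genes, 62 moved with 0.1 and 76 with 5 by more than the gap between their differences from SA and SPH. The mean difference of VIM, -3.45 with 1, was -5.28 and -1.73, and that of TNC, -2.86, was -5.27 and -1.22. The counts of genes higher, lower, returned, new in METS and with DLD1 nearer METS (53, 114, 36, 67 and 60) rested on the rule. With a pseudocount of 0.1 they were 126, 269, 74, 167 and 140, and with a pseudocount of 5 they were 16, 17, 4, 14 and 8. A 4-fold rule gave 9, 14, 6, 10 and 9, and a 1.5-fold rule 219, 344, 79, 257 and 179. A minimum of 5 RPKM left 59 lower genes, 11 returned and 25 with DLD1 nearer METS, while 37 were higher and 45 new. With no minimum the counts did not change, and with median-of-ratios factors they were 64, 102, 35, 66 and 58, with 155 genes shared. With SA or SPH left out, so that 1 mesenchymal line set the rule, the counts were 80 to 109 higher, 140 to 195 lower, 43 to 76 returned, 80 to 94 new and 74 to 146 with DLD1 nearer METS. No paired analysis was possible because each line has 1 library. With 1 library per line the spread between cultures is unknown, and values under 0.1 RPKM rest on few reads.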

Other observations

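Some gene groups differed in METS by less than 2-fold and so do not appear in the counts. Of all 11600 tested genes, 47.9% were lower in METS than in both SA and SPH by any amount and 29.4% were higher than in both. Of 29 proliferation genes none met the 2-fold rule in either direction, but 28 were lower in METS than in both SA and SPH (96.6%), with a median log2 difference of -0.27 from their mean against -0.05 over all tested genes. MKI67, the proliferation antigen Ki-67, stood at 31.28, 38.57, 35.30 and 23.12 RPKM across DLD1, SA, SPH and METS, and the mitotic factor FOXM1 at 39.16, 38.77, 34.94 and 24.84. Among 10 integrin subunits ITGB6 alone met the rule, and 7 were lower in METS than in both (70%, median -0.34), with the laminin-binding subunit ITGA6 at 41.07, 37.76, 42.66 and 20.19 RPKM. In the other direction, 19 of 27 genes of cholesterol and fatty acid synthesis were higher in METS than in both SA and SPH (70.4%, median 0.14), among them HMGCS1 at 83.09, 66.32, 62.46 and 87.11 RPKM. None of these differences has a replicate check.

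Looking through the 167 genes afterwards, the homeobox transcription factors MSX2, EVX1 and EN2 were lower in METS. MSX2 stood at 15.30, 14.40, 14.43 and 6.61 RPKM across DLD1, SA, SPH and METS. EVX1 stood at 1.77, 2.63, 2.94 and 0.35 RPKM, with its antisense neighbour EVX1-AS at 0.74, 1.31, 1.75 and 0.12, and EN2 at 1.65, 2.64, 2.78 and 0.57. The reads of EVX1 and EVX1-AS cannot be told apart without strand. Among genes newly high in METS, the lysosomal protease gene LGMN stood at 10.44, 7.22, 8.73 and 25.43 RPKM and AHR, the receptor for aryl hydrocarbons, at 16.35, 20.30, 16.10 and 46.67. IGFBP6, which binds insulin-like growth factors, stood at 4.18, 4.94, 5.85 and 14.30 RPKM, and LAMA2, a laminin chain, at 0.55, 0.68, 0.73 and 2.66.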
